A study of Neurospora crassa with 16 samples.

Results

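The genes of glycogen synthesis and breakdown in the filamentous fungus Neurospora crassa were described here in a strain that lacks lysine-specific demethylase 1 (LSD1), a histone demethylase. The 5 genes were chosen by locus tag, as the known enzymes of the pathway, from 9730 counted genes, with earlier results of these data known. They are gsn (NCU06687, glycogen synthase, listed as gsy-1 in the reference table), gnn (NCU06698, glycogenin), gbn (NCU05429, the branching enzyme), gpn (NCU07027, glycogen phosphorylase) and gdn (NCU00743, the debranching enzyme). The reference table carries a symbol for gsn and gnn, and the names of the other members were assigned by locus tag. All 5 had at least 10 reads in each library.

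The mutant was Δlsd1 strain N5555 (mat a, lsd1 replaced by the hygromycin marker hph), sampled as germinated conidia, the asexual spores, grown for 16 h with shaking in minimal medium with sucrose. It was represented by 2 libraries of polyadenylated RNA, with 7017726 reads on genes in replicate 1 and 6797672 in replicate 2. The wild type was strain N3752 (mat A), whose 2 libraries belong to another series and enter here as group means in the authors' 2 deposited tables of higher and lower genes. All Δlsd1 values thus come from 1 strain, and nothing in the labels says whether its libraries came from separate cultures, so the spread between them may be technical. Mating type and series also separate the strains, and neither can be told apart from the loss of lsd1. The targeted gene, NCU09120, kept 41 and 65 reads in the Δlsd1 libraries, with a normalised mean of 88.7 in Δlsd1 and 675 in wild type by the authors' deposited table.

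Glycogen is a branched polymer of glucose that fungi store and draw on for growth and spore formation. Glycogenin starts a chain by attaching glucose to itself, glycogen synthase lengthens the chain from UDP-glucose, and the branching enzyme adds the side chains. Phosphorylase releases glucose 1-phosphate from the chain ends, and the debranching enzyme removes the branch points at which phosphorylase stops. In Neurospora the polymer accumulates during vegetative growth, and both synthase and phosphorylase are also regulated by phosphorylation, which RNA levels do not show.

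All 3 genes of synthesis fell in Δlsd1 by the authors' deposited tables. Neither gene of breakdown was in these tables, and no wild-type value of either was used here. By the group means of the authors' deposited table, glycogenin fell 2.79-fold, glycogen synthase 2.54-fold and the branching enzyme 2.10-fold, and whether these decreases differ was not tested. The genes in these tables have a fold change of 2 or more in either direction and unadjusted p-values up to 0.0497. Of the 5 members, 3 were called lower and 0 higher, where 7.76% of all counted genes were called lower and 3.13% higher. As the members were chosen with earlier results of these data known, these shares are no test of the pathway. The 3 decreases also had an adjusted p under 0.05, which 6.57% of counted genes met as lower and 2.81% as higher. Among the 2047 genes whose mean level in the Δlsd1 libraries was at least that of gnn, the lowest member, 3.91% were called lower. Lower genes are by definition reduced in Δlsd1, so a cut on that level removes some of them. All 5 members pass it by construction, and the 3.91% is thus not a matched background. For the 3 members the median log2 change was -1.34, and for all 755 lower genes of the authors' deposited table it was -1.41.

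Glycogen synthase (gsn) had normalised counts of 1125 and 1119 in the 2 Δlsd1 libraries, against a mean of 2849 in wild type, as the authors' deposited table gives it. These normalised counts are the read count plus 1 divided by the authors' size factor of each library, which was recovered from the deposited means. The Δlsd1 libraries were almost equal, and both lay far below the wild-type mean. For gsn the authors' deposited table gave a log2 change of -1.34 (adjusted p = 1.56e-11). Each library alone stood at -1.34 and -1.35 against that wild-type mean.

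Glycogenin (gnn), the primer protein, had normalised counts of 697 and 735 in the Δlsd1 libraries, against a mean of 1998 for wild type by the authors' deposited table. The gap between the Δlsd1 libraries was 37.9, while the wild-type mean lay 1263 above the higher of them. The authors' deposited table put gnn at -1.48 on the log2 scale (adjusted p = 4.21e-13). Against the wild-type mean, the libraries taken singly gave -1.52 and -1.44. The annotated span of gnn shares 157 bp, 4.57% of its length, with its neighbour NCU06697, which was in neither table. Reads there cannot be told apart without strand. The deposited counts set ambiguous reads apart (0.117% in replicate 1 and 0.0879% in replicate 2), and how reads in the shared stretch were counted is not given.

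The branching enzyme gene (gbn) had normalised counts of 1725 and 1245 in the Δlsd1 libraries, against 3121 on average for wild type by the authors' deposited table. Both libraries lay below wild type, but they differed from each other by 481. The log2 change of gbn was -1.07 with an adjusted p = 6.26e-06, both from the authors' deposited table. Replicate 1 alone stood at -0.86, short of 2-fold, and replicate 2 alone at -1.33, so without replicate 2 gbn would not reach the fold of the tables. Of the 755 lower genes in the authors' deposited table, 78 had a smaller fold change than gbn.

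**Figure D1:**
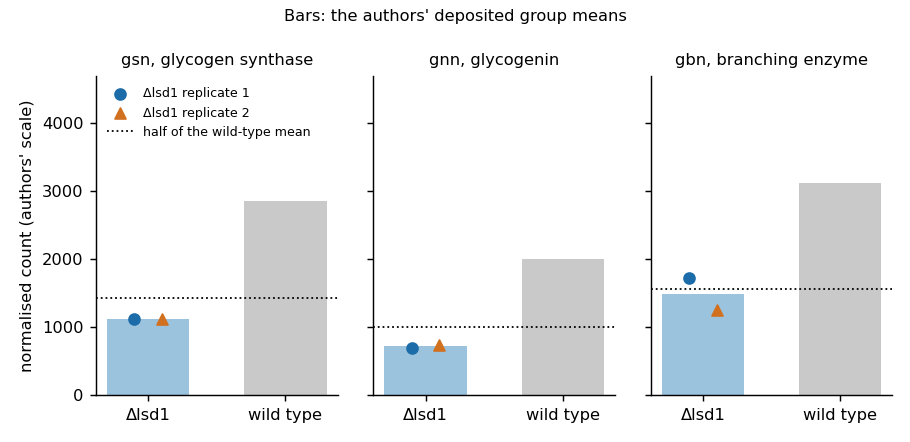
Normalised counts (vertical axis, the authors' scale) of the 3 called glycogen genes in Δlsd1 and wild type. Bars are the authors' deposited group means, points the single Δlsd1 libraries, with no single wild-type values given, and the dotted line marks a 2-fold decrease; every point lies below the wild-type bar, and replicate 1 of gbn (1725) is the one point above the dotted line.

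The decreases of gnn and gsn lay near the middle of the lower genes by size, and that of gbn was among the smaller ones. By size of the decrease in the authors' deposited table, gnn ranked 328, gsn 428 and gbn 677 of 755, and by adjusted p they ranked 75, 93 and 289. The rank by adjusted p was thus higher than the rank by fold for each of the 3. For comparison, the 78 lower genes whose wild-type mean count was at least that of gnn had a median log2 change of -1.36 in the authors' deposited table.

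**Figure D2:**
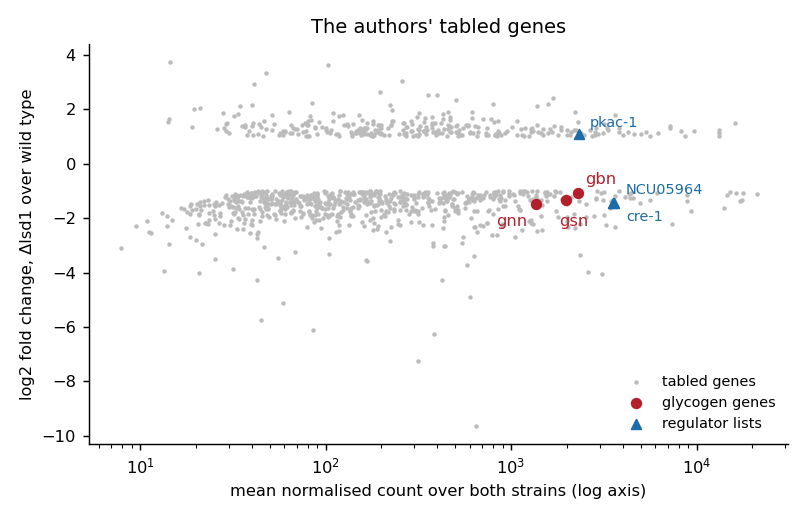
Log2 fold change of Δlsd1 over wild type (vertical axis) against the mean normalised count over both strains (horizontal, log axis) for the 1060 genes of the authors' deposited tables. The 3 glycogen genes (red) lie between -1.48 and -1.07, and triangles mark the called genes of the regulator lists, pkac-1 above 0 and cre-1 and NCU05964, whose points coincide, below it.

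The phosphorylase gene (gpn), which releases glucose from the polymer, was in neither table. It had 31921 reads in replicate 1 and 28402 in replicate 2 of Δlsd1, a level of 4360 ± 106 CPM (SD, n = 2), where CPM are read counts scaled to the effective size of each library. The debranching enzyme gene (gdn), which works beside phosphorylase, had 1356 and 1361 reads and 197 ± 12.0 CPM (SD, n = 2). On the authors' scale the Δlsd1 libraries hold normalised counts of 49885 and 48095 for gpn and of 2121 and 2306 for gdn. No wild-type value of gpn or gdn was used here, so their absence from the tables says only that they did not pass the authors' thresholds, and no difference between breakdown and synthesis genes was tested.

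Per length, phosphorylase stood far above the other members in Δlsd1. It had 1392 and 1345 CPM per kb of annotated span in replicates 1 and 2 and ranked 41 among 9729 genes, whose median was 5.77 CPM per kb. The branching enzyme gene followed with 42.8 and 30.9 CPM per kb, then gdn with 31.3 and 34.2 CPM per kb. The ranges of gbn and gdn overlapped, and their order was reversed between the libraries. Glycogen synthase had 24.7 and 24.6 CPM per kb and glycogenin 18.0 and 19.0 CPM per kb, without overlap between them or with gdn. Each member exceeded the level of at least 74.3% of genes. Spans include introns and untranslated ends, which differ between genes.

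**Figure D3:**
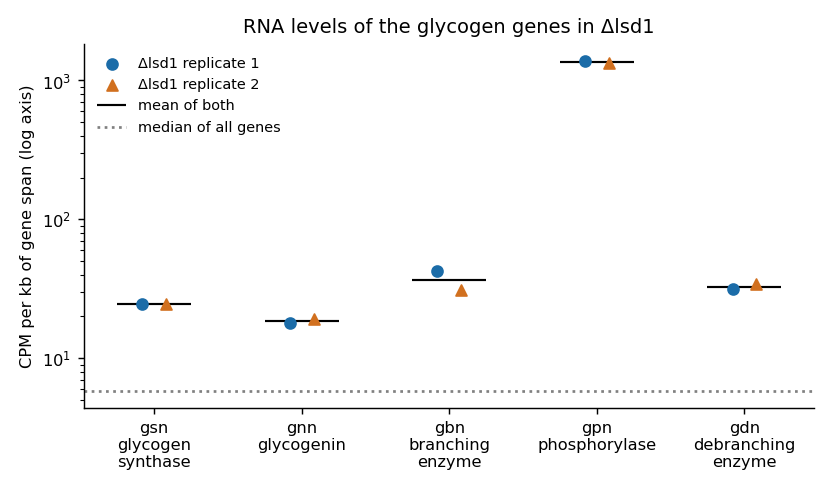
Levels of the 5 glycogen genes in the 2 Δlsd1 libraries, in CPM per kb of gene span (vertical, log axis), with replicate 1 as circles, replicate 2 as triangles, their mean as a bar and the median of all genes (5.77) as a dotted line. Phosphorylase (1368 on average) stands far above the other members, which lie between 18.0 and 42.8.

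Within each Δlsd1 library, gpn exceeded gsn 56.4-fold per kb in replicate 1 and 54.7-fold in replicate 2, and exceeded gdn 44.4-fold and 39.4-fold. Synthase exceeded glycogenin 1.37-fold and 1.29-fold per kb in the Δlsd1 libraries, against 1.21-fold in wild type by the authors' deposited means. The branching enzyme gene exceeded gsn 1.73-fold and 1.26-fold per kb in the Δlsd1 libraries, against 1.24-fold in wild type by the authors' deposited means. The level of the 3 synthesis genes per kb had the order gbn, gsn, gnn in both strains, and whether their ratios differ between strains was not tested.

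Each member's reads were also compared between the Δlsd1 libraries, to see which differences exceed counting error. By an exact two-sided binomial test of the reads, 1983 of 7319 genes (27.1%) differed between the libraries (Benjamini-Hochberg adjusted over all of them), and gbn and gpn were among them. Among the 2051 genes with at least as many reads as gnn, the member with the fewest, the share that differed was 57.0%, above the 2 of 5 members. The 1103 and 734 reads of gbn gave a log2 ratio of 0.47, replicate 1 over replicate 2 (exact binomial test, adjusted p = 1.21e-10), larger in size than that of 81.7% of the genes tested. For gpn the log2 ratio was only 0.05 (exact binomial test, adjusted p = 0.000197), a small difference measured on many reads. The reads of gsn (719 and 660), gnn (445 and 433) and gdn (1356 and 1361) gave log2 ratios of 0.0045, -0.08 and -0.12, which did not pass the exact binomial test (adjusted p = 0.997, 0.632 and 0.0848). The median absolute log2 ratio over all genes tested was 0.21, and of the 5 members only gbn lay above it.

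**Figure D4:**
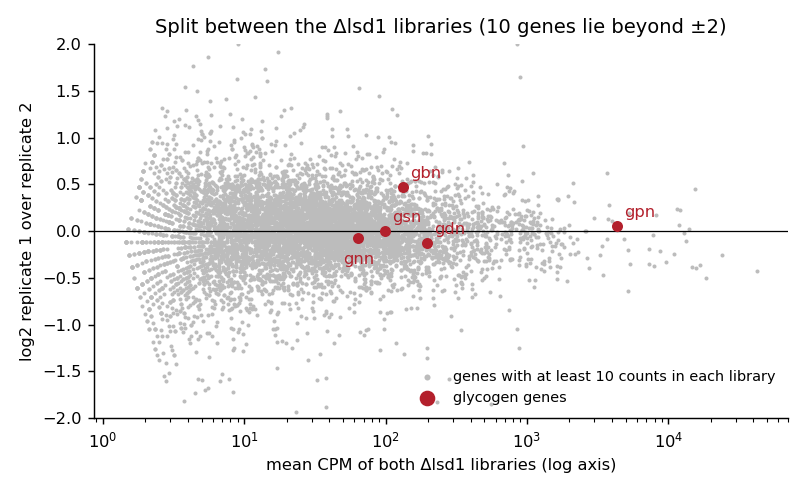
Log2 ratio of replicate 1 over replicate 2 (vertical) against mean CPM (horizontal, log axis) for the 7319 genes with at least 10 counts in each Δlsd1 library, with the 5 glycogen genes in red; 10 genes lie outside the axis. The branching enzyme gene stands at 0.47, and the other members lie between -0.12 and 0.05.

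Markers of spore formation differed between the libraries in the same direction as gbn and gpn, higher in replicate 1. Of the genes tested, 27.1% differed in either direction. Among genes with at least as many reads as gnn the share was 57.0%, and these include eas, fl and the genes of vegetative growth named below. The 4 conidiation markers had a summed level of 1500 CPM in replicate 1 and 434 CPM in replicate 2, and none was at 0. The spore hydrophobin gene eas had 1351 and 338 CPM, 3.99-fold higher in replicate 1. The conidiation regulator gene fl was 1.49-fold higher in replicate 1 (exact binomial test, adjusted p = 6.38e-10), con-10 was 1.65-fold higher (adjusted p = 6.35e-06, exact binomial) and con-6 1.82-fold higher (adjusted p = 0.00327, exact binomial). Against wild type, con-10 fell by 1.75 on the log2 scale (adjusted p = 8.70e-15) and con-6 stood at 1.41 (adjusted p = 0.162) in the authors' deposited tables, while eas and fl were in neither. The genes of vegetative growth gpd-1, tef-1, act and Bml were in neither table and summed to 30787 and 35229 CPM. By the exact binomial test gpd-1, tef-1 (adjusted p = 6.58e-06) and act (adjusted p = 0.00356) also differed between the libraries, and Bml did not (adjusted p = 0.597). Their log2 ratios, replicate 1 over replicate 2, were -0.26 for gpd-1, -0.04 for tef-1, 0.10 for act and -0.03 for Bml. Fewer spore-forming cells and less RNA per cell cannot be told apart in such bulk libraries, and the part of these markers in the values of the glycogen genes was not tested.

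Of the lower genes, gsn and gnn lie near each other in the genome. On assembly NC12, gsn spans 4278032 to 4282081 of chromosome V and gnn 4316579 to 4320011 of the same chromosome. The gap between them is 34.5 kb and holds 9 counted genes, 0 of them called in either direction by the authors. Of all counted genes, 7.76% were called lower and 3.13% higher. Within the gap, NCU06689 had 2 reads in each library and NCU06690 had 2 and 0. The other members lie apart, gbn at 1607466 to 1611047 of chromosome II, gpn at 4959082 to 4962268 of chromosome IV and gdn at 7352112 to 7358123 of chromosome I. The nearest annotated genes on both sides of each member were in neither table, among them atp-2 beside gbn (908 ± 56.9 CPM, SD, n = 2) and os-2 beside gpn (100.3 ± 21.5 CPM, SD, n = 2). Some neighbours had almost no reads, with 1 and 0 for NCU06686 beside gsn and 0 and 0 for NCU07028 beside gpn. The shares of all counted genes given above apply to the neighbours too.

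None of the members overlapped any of the 250 deposited regions, which 2.43% of genes did, but gsn lay next to one. That region, 4274498 to 4277598 of chromosome V (3101 bp), ends 433 bp before the annotated span of gsn. It overlaps NCU06686 by 560 bp, a gene with 1 read in replicate 1 and 0 in replicate 2, and holds the whole annotated non-coding RNA NCU14079, which is not among the counted genes. A nearer region was found for 3.12% of all genes, and 3.90% of genes lay within 1 kb of a region and 7.88% within 5 kb. The other members lay 18.7 kb (gbn), 24.6 kb (gdn), 39.0 kb (gnn) and 101 kb (gpn) from the nearest region, against a median of 65.5 kb over all genes. The sources used here do not give the samples or the method behind the regions.

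**Figure D5:**
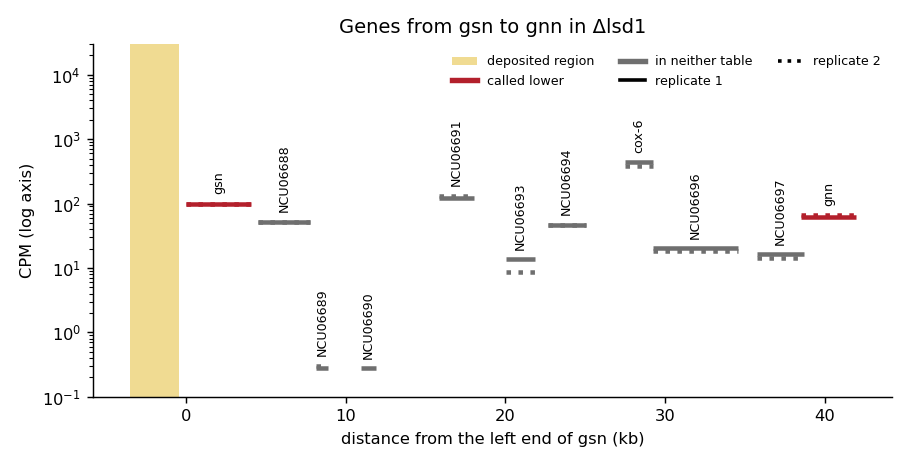
Levels in CPM (vertical, log axis) of the genes from gsn to gnn in the Δlsd1 libraries (solid lines replicate 1, dotted lines replicate 2), against distance from the left end of gsn (horizontal, kb), with values of 0 not drawn. The 2 lower genes (red) enclose 9 genes in neither table (grey), and the deposited region (yellow) ends 433 bp to the left of gsn.

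Other genes around the pathway were called at shares near those of all genes. Of 22 genes in 4 lists (supply of glucose phosphates and UDP-glucose, trehalose, cyclic AMP and kinase signalling, and transcription regulators), 2 were called lower and 1 higher. The corresponding shares of all counted genes were 7.76% and 3.13%. The 3 supply genes, entered by the locus tags NCU02797, NCU10058 and NCU00575, were in neither table and had 1840 ± 11.1, 406 ± 10.8 and 390 ± 8.61 CPM in Δlsd1 (SD, n = 2 each). None of the 5 trehalose genes was called either, with ccg-9, a clock-controlled trehalose synthase gene, at 890 and 1346 CPM, the neutral trehalase gene tre-2 at 910 ± 37.4 CPM (SD, n = 2) and NCU05041 at 113 ± 18.4 CPM (SD, n = 2).

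Of 7 genes of cyclic AMP and kinase signalling, only pkac-1, a catalytic subunit of protein kinase A, was called, and it rose. Among all counted genes, 3.13% were called higher and 7.76% lower. Protein kinase A regulates glycogen metabolism in fungi. The gene had normalised counts of 3111 and 3217 in the Δlsd1 libraries, against a mean of 1492 for wild type by the authors' deposited table, with a log2 change of 1.08 (adjusted p = 1.40e-07). Both libraries were more than 2-fold above that mean. Among the genes in neither table were the other catalytic subunit gene pkac-2 (209 ± 17.0 CPM), the adenylyl cyclase gene cr-1 (204 ± 0.289 CPM) and the regulatory subunit gene mcb (136 ± 22.7 CPM, SD, n = 2 each).

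Of 7 listed transcription regulators, cre-1 and NCU05964 were called lower and 0 were called higher. The shares over all counted genes were 7.76% lower and 3.13% higher. As the list was chosen with earlier results of these data known, its count is no test of these regulators. The carbon catabolite repressor gene cre-1 had normalised counts of 1964 and 1915 in the Δlsd1 libraries, against a mean of 5240 for wild type with an adjusted p = 5.67e-14 in the authors' deposited table. NCU05964, for which the reference table gives no symbol, had 1817 and 2017 in the Δlsd1 libraries against 5163 on average for wild type by the authors' deposited table, which put it at -1.43 on the log2 scale (adjusted p = 4.95e-14). For both genes, both Δlsd1 libraries lay below the wild-type mean. The corepressor gene rco-1 (220 ± 16.7 CPM), msn-1 (515 ± 81.0 CPM) and the nitrogen regulator gene nit-2 (73.2 ± 3.20 CPM, SD, n = 2 each) were in neither table.

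In level, the genes nearest to glycogen synthase over the 2 Δlsd1 libraries, by Euclidean distance of log2 CPM per kb among genes with a symbol, were rho-4, rcm-1 and pex24. Their distances were 0.04, 0.07 and 0.08, and all 3 were in neither table. Most counted genes were in neither, with 7.76% called lower and 3.13% higher.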

How the data were processed

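RNA-seq libraries were prepared with a stranded kit for mRNA, per the labels' protocols. The authors deposited raw read counts per gene for 2 Δlsd1 libraries. Per the submitters' processing notes, Bowtie2, DESeq2 and deepTools were used; the sources used here do not give versions, build, counting program or use of strand. Rows naming no gene were left out. They held reads outside genes (12.3% and 12.7%), ambiguous reads (0.117% and 0.0879%) and reads aligned to several places (3.74% and 3.38%). The authors' deposited tables hold normalised group means (a signal), the fold as a ratio and on the log2 scale, and p-values before and after adjustment, per the file headers. Their Δlsd1 mean was recovered for all 1060 tabled genes from size factors of 0.640 and 0.591, which shows that a positive log2 fold change means higher in Δlsd1. The deposited regions give positions only (unit other). Positions follow NC12, with supercontigs matched to chromosomes by number; 9729 of 9730 loci matched the reference table.

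CPM used effective library sizes from edgeR 4.0.16 (TMM, over the 7319 genes that had 10 or more counts in both libraries; R 4.3.3), with DESeq2 1.42.0 size factors as an alternative. Binomial tests used Python 3.11.15 and scipy 1.17.1 and were tested on simulated Poisson counts. These hold counting error only, so that check does not cover other variation between the libraries. Without wild-type counts no model between strains was fitted. Members and lists were chosen with earlier results of these data known. Named genes were the members, their neighbours, called genes and up to 3 uncalled genes with the highest CPM of each pathway list, all 8 cell markers, and 3 genes of like level; NCU14079 was named after its position was seen. For 2 loci the reference symbol differed from the list: NCU02671 was given by its reference symbol msn-1, and NCU02542, in neither table, was left out. No genome sequence was given, so no motif was searched.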

Additional observations from a re-analysis of the deposited data

How the results depend on the processing

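The 3 decreases kept their direction with each Δlsd1 library alone: between -1.35 and -1.34 on the log2 scale for gsn, -1.52 and -1.44 for gnn, and -1.33 and -0.86 for gbn, whose decrease is short of 2-fold without replicate 2 of Δlsd1. DESeq2 size factors, plain library totals and no filter changed neither the direction nor the call of any member's difference between libraries, and the number of genes that differ ranged from 1909 to 2083. Mean levels moved by less than the spread between libraries. With an adjusted p under 0.05 in place of table membership, the calls of glycogen genes remained 3 lower and 0 higher, and the conidiation markers called higher fell to 0, against 1. Within 1 kb and within 5 kb of a region lay 1 member, gsn, against 0 that overlap one. Levels per coding length were not run, since no coding lengths were given. With 2 libraries of 1 strain, changes under 2-fold, and any change of gpn and gdn, are beyond these tables. No paired analysis was possible because wild-type counts were not used here and the Δlsd1 RNA libraries are 1 group.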
